A study of Mus musculus with 8 samples.

Results

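The genes described here encode 9 CC chemokines, Ccl2, Ccl3, Ccl4, Ccl5, Ccl6, Ccl7, Ccl9, Ccl12 and Ccl24, picked by symbol out of the 45777 genes in the authors' table. All 9 symbols were found, and 8 of these genes had enough reads to be tested. The RNA came from primary hepatic stellate cells of male wild-type C57BL/6 mice, transfected either with an siRNA against PAK4 (siPAK4) or with a control siRNA (siControl), with 4 libraries per group. The sources used here give no age of the mice, no time after transfection and no word on whether libraries stand for separate animals or dishes, so p-values measure the spread between these libraries, which may be technical. All 8 libraries carry the same batch label, and each was made by a stranded mRNA kit and held 55728583 to 61535063 counted reads. PAK4 is a kinase of the p21-activated family, and its transcript Pak4 averaged 6.32 ± 1.13 CPM (read counts scaled to library size) in siPAK4 libraries and 17.2 ± 1.14 CPM in siControl libraries (SD, n = 4 each).

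Chemokines are small secreted proteins that steer the movement of leukocytes by binding G protein-coupled receptors, and those of the CC class carry a pair of adjacent cysteines near the start of the mature protein. CCL2, CCL7 and CCL12 act on CCR2 and draw monocytes out of the blood. CCL3, CCL4 and CCL5 are inflammatory ligands that draw macrophages and T cells, and CCL3 and CCL5 act on CCR1. The mouse proteins CCL6 and CCL9 are CCR1 ligands, and CCL24 acts on CCR3, the receptor of eosinophils. In the injured liver, macrophages, endothelial cells and stellate cells are all known sources of such ligands.

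The libraries did not hold transcripts of stellate cells alone, and in bulk RNA fewer cells of a type and less RNA per cell cannot be told apart. Of 14 stellate cell markers, Dcn averaged 562 TPM (a level per gene length and library, as deposited) in siPAK4 and 483 TPM in siControl libraries, while the retinoid enzyme gene Lrat was near 0, at 0.0856 TPM in siPAK4 and 0.0108 TPM in siControl libraries. The lysozyme gene Lyz2 of macrophages averaged 9982 TPM in siPAK4 and 15800 TPM in siControl libraries. Summed over 17 markers of macrophages and Kupffer cells, the level was 6184 to 9496 CPM in siPAK4 and 10420 to 11980 CPM in siControl libraries. Of the 16 tested, 10 were lower and 0 higher in siPAK4, and the resident Kupffer cell marker Clec4f was too low to test. Lyz2 was the largest part of the sum, with means of 4849 CPM in siPAK4 and 7815 CPM in siControl. The 10 lower genes also included Cd5l (42.0 CPM in siPAK4 and 283 CPM in siControl), Marco (148.5 and 334.9 CPM) and Vsig4 (0.98 and 7.47 CPM). Adgre1 (425 CPM in siPAK4 and 386 CPM in siControl), Cd68 (234 and 241 CPM) and Fcgr1 (47.1 and 46.7 CPM) were among the 6 that did not pass. The 12 endothelial markers summed to 3705 to 5386 CPM in siPAK4 and 6212 to 6424 CPM in siControl libraries, with 6 lower and 3 higher. The 14 stellate cell markers summed to 802 to 933 CPM in siPAK4 and 1080 to 1341 CPM in siControl libraries, with 1 higher and 8 lower of 13 tested. Among the lower were Acta2 (35.0 TPM in siPAK4 and 106 TPM in siControl) and Col1a1 (45.6 and 119 TPM), and the higher was Hgf (19.6 and 14.6 TPM). Dcn did not pass (edgeR adjusted p = 0.15), and Lrat was too low to test. Dendritic cell markers gave 1 higher and 2 lower of 6 tested, B cell markers 0 higher and 1 lower of 3, and 0 of the mast cell and basophil markers could be tested.

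The coding sequences of the 9 genes are shown around the codons of the adjacent cysteines (in capitals), the feature that defines the class, because this stretch shows how far apart the members are. Each run has 15 bases before and 24 after these codons, 5′ to 3′ on the coding strand, read from GENCODE M21 transcripts of GRCm38.
Ccl2: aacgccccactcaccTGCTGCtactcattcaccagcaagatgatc
Ccl7: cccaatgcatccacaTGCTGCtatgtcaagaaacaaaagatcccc
Ccl12: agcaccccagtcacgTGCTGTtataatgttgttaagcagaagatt
Ccl3: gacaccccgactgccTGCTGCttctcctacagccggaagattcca
Ccl4: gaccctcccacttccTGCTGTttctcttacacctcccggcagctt
Ccl5: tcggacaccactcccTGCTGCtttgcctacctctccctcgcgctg
Ccl6: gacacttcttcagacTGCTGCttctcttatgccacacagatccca
Ccl9: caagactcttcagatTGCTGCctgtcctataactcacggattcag
Ccl24: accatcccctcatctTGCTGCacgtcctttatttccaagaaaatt
Every member had this pair of codons, and 7 of the 9 spelled it TGCTGC. Ccl4 and Ccl12 ended it with TGT. Over the whole coding sequence, Ccl3 and Ccl4 were the most alike pair of all, with 68.1% identical bases. Ccl6 and Ccl9 shared 64.6%, with a longest identical run of 23 bases, and Ccl7 and Ccl12 shared 63.2%. Ccl2 shared 46.2% with Ccl7 and 48.4% with Ccl12, where the longest identical run was 17 bases.

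In the genome build GRCm38.p6 (also called mm10), 8 of the 9 genes lie on chromosome 11 in a pair of clusters, with 1346 kb between Ccl1, the last gene of the first cluster and no member here, and Ccl5, the first of the other. Ccl2 (NCBI gene 20296, chr11:82035577-82037452), Ccl7 (chr11:82045712-82047525) and Ccl12 (chr11:82101845-82103399) lie on the plus strand, with 8.26 kb between Ccl2 and Ccl7. The other cluster holds Ccl5 (chr11:83525778-83530518), Ccl9 (chr11:83572917-83578636), Ccl6 (chr11:83587886-83593087) and Ccl3 (chr11:83647843-83649378) on the minus strand and Ccl4 (chr11:83648624-83664683) on the plus strand. The RefSeq gene spans of Ccl3 and Ccl4, introns included, overlap by 755 bases on opposite strands, and overlap of their exons was not computed. Since the strand setting of the authors' counting is not given either, their separate counts are uncertain. Ccl24 lies alone on chromosome 5 (135569935 to 135573123, minus strand).

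Of the 8 tested genes, 2 were higher in siPAK4 libraries, 0 were lower and 6 did not pass edgeR's quasi-likelihood test at an adjusted p of 0.05. At an unadjusted p of 0.05, 3 members (Ccl2, Ccl7 and Ccl3) were higher and 1 (Ccl12) lower, and DESeq2 also called 0 lower. The call of Ccl7 hung on single libraries, as given with its values. The 2 higher genes are 25% of the tested members, beside 26.9% of all 17975 genes tested (12.4% higher, 14.5% lower), so the share of members called lay near that of all genes. The higher genes were Ccl2 and Ccl7, both ligands of CCR2. In 1 of the 8 tested members (12.5%) the groups did not overlap, against 28.8% of all tested genes. The median log2 fold change (siPAK4 over siControl) of the 8 was 0.19, beside 0.0052 over all tested genes. The summed markers of macrophages, endothelial cells and stellate cells were lower in the siPAK4 libraries, without overlap with the siControl libraries, and their part in the chemokine values was not tested.

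**Figure D1:**
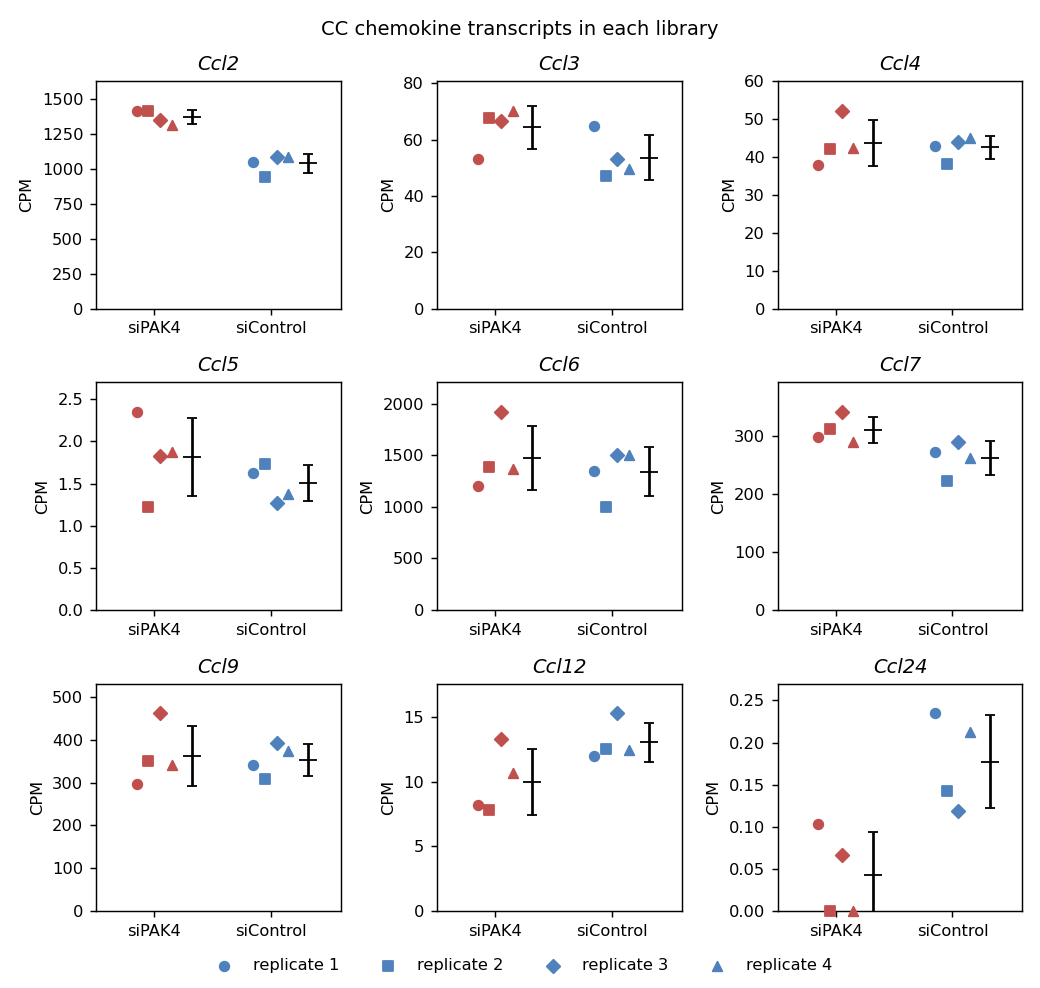
CPM of each CC chemokine in every library, 4 siPAK4 on the left and 4 siControl on the right of each panel; points are libraries, with the mean and SD beside them. Ccl2 stands at 1313 to 1413 CPM in siPAK4 and 940.2 to 1086 CPM in siControl libraries, while in Ccl4, Ccl6 and Ccl9 the groups lie over each other.

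Ccl2, the main monocyte attractant of the family, had 1412, 1413, 1344 and 1313 CPM in siPAK4 replicates 1 to 4, against 1047, 940.2, 1081 and 1086 CPM in siControl replicates 1 to 4. Every siPAK4 library was above every siControl library. The means were 1370 ± 49.9 CPM in siPAK4 and 1039 ± 67.8 CPM in siControl (SD, n = 4 each), a 1.32-fold difference. The log2 fold change was 0.40 (SE 0.065, adjusted p = 0.00088 by edgeR's quasi-likelihood test with Benjamini-Hochberg adjustment). Ccl2 stayed past the threshold in all 17 other settings tried, with log2 fold changes of 0.35 to 0.49. The spread within a group was small for Ccl2, with coefficients of variation of 3.64% in siPAK4 and 6.53% in siControl.

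Ccl7, which also acts on CCR2, had 299, 313, 342 and 291 CPM in siPAK4 replicates 1 to 4, against 273, 223, 291 and 264 CPM in siControl replicates 1 to 4. The lowest siPAK4 library (replicate 4) and the highest siControl library (replicate 3) stood side by side, so the groups overlapped. Ccl7 rose to 311 ± 22.7 CPM in siPAK4, against 263 ± 28.8 CPM in siControl (SD, n = 4 each), with a log2 fold change of 0.25 (SE 0.082, edgeR adjusted p = 0.046). This call lost its significance without siPAK4 replicate 1, 2 or 3 and without siControl replicate 1, 2 or 4, where the adjusted p was 0.060 to 0.12 and the log2 fold change 0.17 to 0.26. With no filter on low counts the adjusted p was 0.058.

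Ccl12, the third CCR2 ligand and known from mouse, had 8.23, 7.79, 13.3 and 10.7 CPM in siPAK4 replicates 1 to 4, against 12.0, 12.5, 15.3 and 12.4 CPM in siControl replicates 1 to 4. Only siPAK4 replicate 3 reached the range of the siControl libraries. The means were 9.99 ± 2.54 CPM in siPAK4 and 13.03 ± 1.504 CPM in siControl (SD, n = 4 each), with a log2 fold change of −0.38 (SE 0.157, edgeR adjusted p = 0.0946), which did not pass. Without siPAK4 replicate 3 the log2 fold change was −0.55 and passed (adjusted p = 0.0040). In that library the summed macrophage markers were also the highest of the siPAK4 group (9496 CPM, against 6184 to 7107 CPM in the other siPAK4 libraries), and the endothelial markers the lowest (3705 CPM). Their part in the level of Ccl12 was not tested.

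Within a library, the ratio of Ccl2 to Ccl12 was 97.3 to 171 in siPAK4 and 68.7 to 84.2 in siControl, with no overlap. The log2 ratio (CPM plus 0.5) averaged 7.06 ± 0.38 in siPAK4 and 6.27 ± 0.15 in siControl (SD, n = 4 each), a difference of 0.79. Its p was 0.029 in a two-sided exact permutation test, the smallest that 4 against 4 libraries can give, and 0.086 after Benjamini-Hochberg adjustment over the 6 pairs compared. The ratio of Ccl7 to Ccl12 was 24.8 to 37.8 in siPAK4 and 17.2 to 21.9 in siControl, with no overlap (difference of log2 ratios 0.64, exact p = 0.029, adjusted p = 0.086). This ratio and that of Ccl2 to Ccl12 share Ccl12, so they are not independent results. The ratio of Ccl2 to Ccl7 overlapped between the groups, at 3.92 to 4.71 in siPAK4 and 3.71 to 4.21 in siControl (difference of log2 ratios 0.15, exact p = 0.086, adjusted p = 0.17). None of the 6 pairs passed after adjustment, which this number of libraries allows only where at least 4 pairs reach the smallest p.

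**Figure D2:**
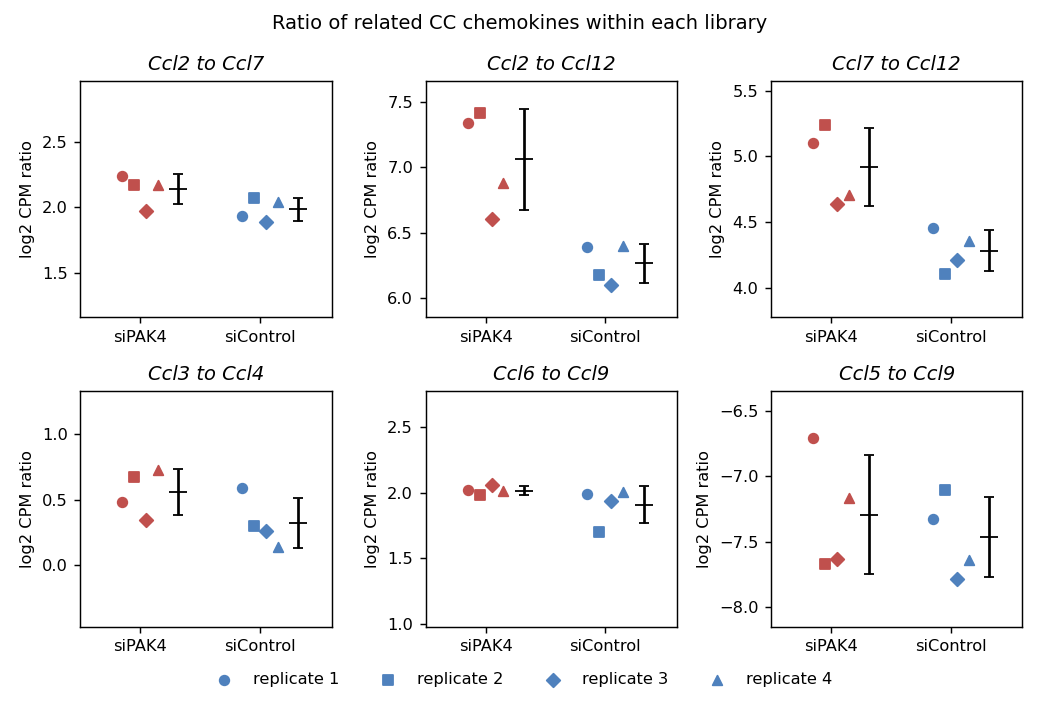
Log2 ratio of CPM between related CC chemokines within each library, with siPAK4 left of siControl in each panel; points are libraries, with the mean and SD beside them. The groups do not overlap for Ccl2 to Ccl12 (means 7.06 and 6.27) and for Ccl7 to Ccl12 (means 4.92 and 4.28), and overlap for the other 4 pairs.

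Ccl3, which encodes the CCR1 ligand also called MIP-1 alpha, had 53.3, 67.7, 66.6 and 70.3 CPM in siPAK4 replicates 1 to 4, against 65.0, 47.1, 53.0 and 49.6 CPM in siControl replicates 1 to 4. Replicate 1 of each group stood apart from the other 3, as the lowest of siPAK4 and the highest of siControl. The means were 64.5 ± 7.62 CPM in siPAK4 and 53.7 ± 7.93 CPM in siControl (SD, n = 4 each), with a log2 fold change of 0.26 (SE 0.108, edgeR adjusted p = 0.0945), which did not pass. It passed without siPAK4 replicate 1 (0.35, adjusted p = 0.027), without siControl replicate 1 (0.37, adjusted p = 0.019) and with libraries scaled by their totals alone (0.35, adjusted p = 0.025).

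Ccl4, which encodes the attractant also called MIP-1 beta, had 37.9, 42.2, 52.2 and 42.4 CPM in siPAK4 replicates 1 to 4, against 43.0, 38.2, 44.1 and 45.0 CPM in siControl replicates 1 to 4. The groups overlapped almost wholly, and siPAK4 replicate 3 was the highest of all 8. The log2 fold change was 0.04 (SE 0.093, edgeR adjusted p = 0.81). The ratio of Ccl3 to Ccl4 was 1.27 to 1.65 in siPAK4 and 1.101 to 1.504 in siControl, a difference of log2 ratios of 0.24 (exact permutation p = 0.14, adjusted p = 0.17), with the groups overlapping.

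Ccl5, the ligand of CCR1 and CCR3 also called RANTES, had few reads, with 136, 72, 110 and 110 reads in siPAK4 replicates 1 to 4 and 90, 97, 75 and 78 reads in siControl replicates 1 to 4. That is 2.35, 1.23, 1.83 and 1.87 CPM in siPAK4 libraries, against 1.63, 1.73, 1.27 and 1.38 CPM in siControl libraries. The lowest and the highest values of all were both from siPAK4 libraries. The log2 fold change was 0.28 (SE 0.204, edgeR adjusted p = 0.36). T and NK cell markers, which mark another known source of CCL5, summed to 3.59 to 4.93 CPM in siPAK4 and 4.99 to 8.52 CPM in siControl libraries, and their part in the level of Ccl5 was not tested. Of the 12 genes on that list, 8 were tested and 1, Cd4, passed, being lower in siPAK4.

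Ccl6, a CCR1 ligand known from rodents, had 1207, 1382, 1920 and 1370 CPM in siPAK4 replicates 1 to 4, against 1350, 999.4, 1500 and 1506 CPM in siControl replicates 1 to 4. The highest library was siPAK4 replicate 3 and the lowest siControl replicate 2. The log2 fold change was 0.13 (SE 0.154, edgeR adjusted p = 0.57), and the coefficient of variation was 21.1% in siPAK4 and 17.7% in siControl (Ccl2 had 3.64% and 6.53%).

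Ccl9, the neighbour of Ccl6 and also a CCR1 ligand, had 297.7, 350.1, 461.6 and 339.9 CPM in siPAK4 replicates 1 to 4, against 340, 307.5, 391.1 and 374 CPM in siControl replicates 1 to 4. Here too siPAK4 replicate 3 was the highest library. The log2 fold change was 0.04 (SE 0.122, edgeR adjusted p = 0.86). The ratio of Ccl6 to Ccl9 stayed within 3.94 to 4.16 in siPAK4 and 3.25 to 4.02 in siControl libraries (difference of log2 ratios 0.11, exact permutation p = 0.11, adjusted p = 0.17). The log2 ratio of Ccl5 to Ccl9 differed by 0.17 (exact permutation p = 0.51, adjusted p = 0.51).

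Ccl24, the eosinophil attractant eotaxin-2, had 6, 0, 4 and 0 reads in siPAK4 replicates 1 to 4, against 13, 8, 7 and 12 reads in siControl replicates 1 to 4. All 4 siPAK4 libraries were below all 4 siControl libraries, with 10 reads in all in siPAK4 and 40 in siControl. Ccl24 did not pass the filter on low counts, so it has no test in the comparison. With no filter its fitted log2 fold change was −2.01 and did not pass (edgeR adjusted p = 0.18).

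**Figure D3:**
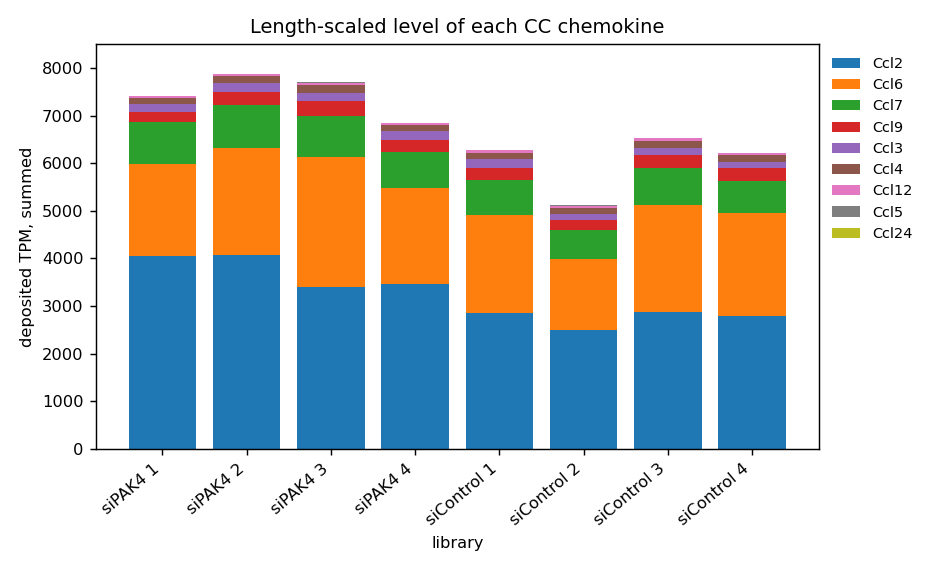
Deposited TPM of the 9 CC chemokines stacked for each library, siPAK4 libraries first; the height is the summed TPM. The sums run from 6860 to 7881 in siPAK4 and from 5120 to 6534 in siControl libraries, and Ccl2 and Ccl6 make up most of every bar.

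Per gene length, the order of the members was the same in both groups. Ccl2 stood first, with a mean of 3746 TPM in siPAK4 and 2755 TPM in siControl, followed by Ccl6 with 2233 and 1992 TPM and Ccl7 with 854 and 702 TPM. Ccl9 followed with 263 TPM in siPAK4 and 251 TPM in siControl. Next came Ccl3 (179 and 146 TPM) and Ccl4 (143 and 136 TPM), the only neighbours whose ranges over libraries overlapped within a group. Ccl12 (40.5 TPM in siPAK4 and 51.9 TPM in siControl), Ccl5 (7.47 and 6.01 TPM) and Ccl24 (0.070 and 0.28 TPM) closed the order. In CPM, the sum over the 9 genes overlapped between the groups, at 3318 to 4202 in siPAK4 and 2570 to 3377 in siControl libraries. In TPM, the 9 genes summed to 6860 to 7881 in siPAK4 and 5120 to 6534 in siControl libraries, without overlap. Of this sum, Ccl2 was 50.2% ± 4.4 in siPAK4 and 45.8% ± 2.1 in siControl, Ccl6 29.9% ± 3.9 and 32.8% ± 2.6, and Ccl12 0.544% ± 0.11 and 0.864% ± 0.11 (SD, n = 4 each). No test of these shares was run.

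Over the 8 libraries, siPAK4 replicate 3 was the highest of its group in 5 of the 8 tested members and the lowest in 0, while siControl replicate 2 was the lowest of its group in 6. Correlations of log2 CPM over the 8 libraries are given as descriptions, since all points share their libraries and group difference. Ccl4, Ccl6 and Ccl9 moved closely together, with Pearson's r of 0.97 for Ccl4 with Ccl9, 0.95 for Ccl4 with Ccl6 and 0.93 for Ccl6 with Ccl9, and with the group means removed r was 0.97, 0.96 and 0.95. Ccl2 and Ccl7 had r = 0.84, and 0.68 with the group means removed. Ccl2 and Ccl12 had r = −0.67, and −0.22 with the group means removed, the lowest of the 21 pairs. With the group means removed, Ccl7 also went with Ccl6 (r = 0.87), Ccl9 (0.78) and Ccl4 (0.75), and Ccl12 with Ccl9 (0.77) and Ccl4 (0.74).

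Among 11360 genes with a mean of at least 5 CPM, the genes most like Ccl2 over the 8 libraries were Dgke (r = 0.99), Mrps30 (0.99) and Birc3 (0.99). Those most like Ccl7 were Tmem68 (0.99), Bcl2a1a (0.98) and Zfp788 (0.97), and those most like Ccl12 were Tlr13, Adcy7 and Vamp3 (0.98 each). Ccl4 was among the 3 genes most like Ccl9, and Ccl9 was the gene most like Ccl4 (0.97). Those most like Ccl6 were Esco1, Aplf and Skp1a (0.96 to 0.97), and those most like Ccl3 were Zfp595, Acat3 and Hk2 (0.94 to 0.96).

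**Figure D4:**
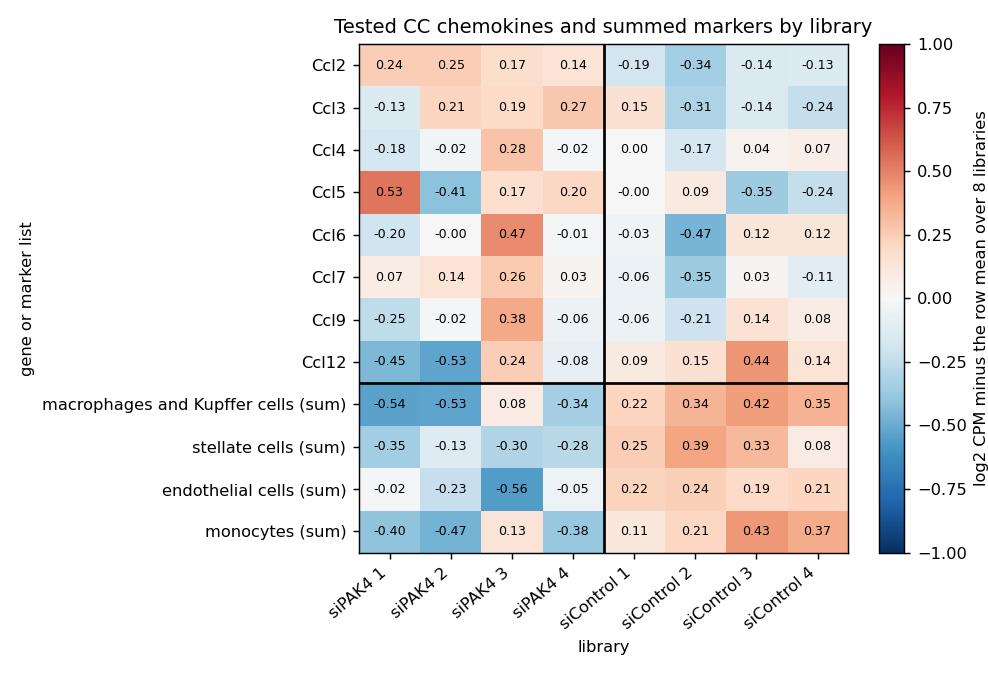
Log2 CPM of each tested CC chemokine and of 4 summed marker lists in every library, minus its mean over the 8 libraries; the 4 siPAK4 libraries are on the left. Red is above and blue below the mean. Ccl4, Ccl6 and Ccl9 are each highest in siPAK4 replicate 3, and are lowest in siPAK4 replicate 1 for Ccl4 and Ccl9 and in siControl replicate 2 for Ccl6. The macrophage markers are below their mean in siPAK4 replicates 1, 2 and 4 and above it in replicate 3 and in the siControl libraries.

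The 250 bases before the annotated start of Ccl6, Ccl9 and Ccl12 are shown to compare the neighbours Ccl6 and Ccl9, which varied together, with Ccl12, the tested member whose fitted change was below 0 but did not pass. With the group means removed, Ccl12 also varied with Ccl9 (r = 0.77) and Ccl6 (r = 0.66). The stretches shown are RefSeq sequences of GRCm38.p6, at chr11:83593088-83593337 (minus strand) for Ccl6, chr11:83578637-83578886 (minus strand) for Ccl9 and chr11:82101595-82101844 (plus strand) for Ccl12. Capitals mark matches to any of 4 motifs searched on both strands, the NF-kB consensus, the AP-1 site TGANTCA, the interferon response element core GAAANNGAA and the TATA box TATAAA. The promoter table held 4 of the 9 members, these 3 and Ccl3.
Ccl6: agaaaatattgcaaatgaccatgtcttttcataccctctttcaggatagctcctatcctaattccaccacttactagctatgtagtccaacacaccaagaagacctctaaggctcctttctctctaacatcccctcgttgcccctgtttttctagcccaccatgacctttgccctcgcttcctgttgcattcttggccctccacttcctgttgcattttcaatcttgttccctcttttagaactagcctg
Ccl9: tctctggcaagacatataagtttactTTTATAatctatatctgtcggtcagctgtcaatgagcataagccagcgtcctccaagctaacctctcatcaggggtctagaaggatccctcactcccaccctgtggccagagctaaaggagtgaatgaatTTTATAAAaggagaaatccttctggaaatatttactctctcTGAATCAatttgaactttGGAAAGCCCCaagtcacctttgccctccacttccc
Ccl12: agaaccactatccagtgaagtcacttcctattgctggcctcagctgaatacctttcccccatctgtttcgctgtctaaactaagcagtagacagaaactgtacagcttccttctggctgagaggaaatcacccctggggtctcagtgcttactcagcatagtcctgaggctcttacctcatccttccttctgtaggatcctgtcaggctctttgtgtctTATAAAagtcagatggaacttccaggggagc
Counted from the annotated start, Ccl9 held the NF-kB consensus at position −35 on the minus strand and an AP-1 site at −53. It also held TATA boxes at −224, −94 and −92, the last of which overlaps the one at −94. Ccl12 held a TATA box at −31, Ccl3 the interferon element core at −39 on the minus strand, and Ccl6 none of the 4. Of 32851 windows of 300 bases around annotated starts in the same table, 4.51% held the NF-kB consensus, 7.81% the AP-1 site, 8.56% the interferon element core and 13.6% a TATA box. Any part of these motifs in the levels of the genes was not tested.

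**Figure D5:**
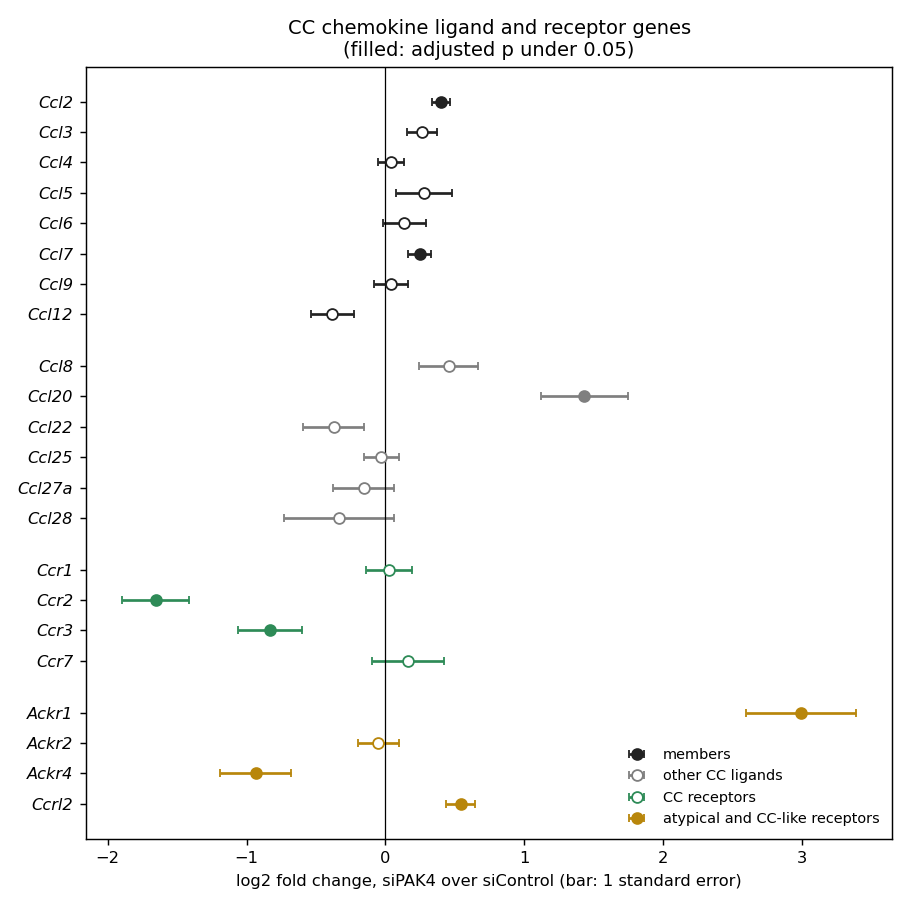
Log2 fold change, siPAK4 over siControl, of tested CC chemokine ligands and of 4 tested CC receptors and 4 atypical or CC-like receptors, with 1 standard error; filled points passed at an adjusted p of 0.05. Ccl2, Ccl7, Ccl20, Ackr1 and Ccrl2 lie above 0 and passed, and Ccr2, Ccr3 and Ackr4 lie below 0 and passed.

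Of 14 further CC chemokine genes, 13 were in the table and 6 were tested, of which 1 was higher and 0 lower. That gene was Ccl20, the ligand of CCR6, with 0.81 ± 0.23 CPM in siPAK4 and 0.30 ± 0.10 CPM in siControl (SD, n = 4 each) and no overlap between the groups (log2 fold change 1.43, SE 0.314, edgeR adjusted p = 0.0058). Ccl8, in the cluster of Ccl2, had 1.98 ± 0.46 and 1.44 ± 0.34 CPM and did not pass (0.45, adjusted p = 0.14). Ccl22, Ccl25, Ccl27a and Ccl28 did not pass either. Ccl19, Ccl21a, Ccl21b and Ccl26 had no read in any library.

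Among the receptors, that of Ccl2 and Ccl7 was lower in siPAK4. Ccr2, the monocyte receptor of Ccl2, Ccl7 and Ccl12, had 1.69, 2.35, 3.39 and 2.33 CPM in siPAK4 replicates 1 to 4, against 7.82, 4.84, 10.2 and 7.94 CPM in siControl replicates 1 to 4, with no overlap. It fell to 2.44 ± 0.70 CPM in siPAK4, against 7.70 ± 2.2 CPM in siControl (log2 fold change −1.66, SE 0.239, edgeR adjusted p = 0.00045). Of 11 receptor genes 5 were tested, and 2 were lower and 0 higher (40% called, beside 26.9% of all tested genes). The other lower gene was Ccr3, the receptor of CCL24 and of CCL5, with 0.54 ± 0.075 CPM in siPAK4 and 0.97 ± 0.22 CPM in siControl (log2 fold change −0.83, edgeR adjusted p = 0.020). That call was lost without siPAK4 replicate 2 and without siControl replicate 2 or 3, with adjusted p of 0.057 to 0.064. Monocyte markers, among which Ccr2 itself is listed, summed to 202 to 307 CPM in siPAK4 and 303 to 378 CPM in siControl, with 2 higher and 3 lower among 8 tested, and their part in the level of Ccr2 was not tested.

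Ccr1, the receptor of CCL3, CCL5, CCL6 and CCL9, had 132 ± 36.5 CPM in siPAK4 and 130 ± 18.04 CPM in siControl (0.02, adjusted p = 0.94). As with Ccl6 and Ccl9, its highest library was siPAK4 replicate 3, with 185.5 CPM. Ccr7 did not pass (0.16, adjusted p = 0.70).

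The tested atypical and CC-like receptors, which bind chemokines or related ligands, moved in both directions. Ackr1, which binds many chemokines and is known from venules and red cells, rose to 3.18 ± 1.23 CPM in siPAK4, against 0.40 ± 0.25 CPM in siControl (log2 fold change 2.99, SE 0.396, edgeR adjusted p = 0.00025). Ccrl2, a chemerin-binding receptor related to the CC receptors, was also higher (12.3 ± 1.26 and 8.47 ± 0.96 CPM, 0.54, adjusted p = 0.0027), and Ackr4, the scavenger of CCL19, CCL21 and CCL25, was lower (0.44 ± 0.12 and 0.85 ± 0.14 CPM, −0.93, adjusted p = 0.019). Without siPAK4 replicate 2 or siControl replicate 4 the adjusted p of Ackr4 was 0.053 and 0.055. Ackr2, the scavenger of the inflammatory CC chemokines, did not pass (11.7 ± 2.57 and 12.1 ± 1.61 CPM, −0.05, adjusted p = 0.84). Of the 5 genes on this list, 4 were tested, 2 higher and 1 lower (75% called, beside 26.9% of all tested genes). Pitpnm3, the other gene on the list, was not tested, with 0 reads over the siPAK4 and 39 over the siControl libraries. With no filter on low counts Pitpnm3 was called lower (edgeR adjusted p = 0.0050).

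Of 20 tested genes that carry the signal of chemokine receptors, 9 were lower in siPAK4, 0 were higher and 11 missed the threshold. The called genes were 45% of the list, beside 26.9% of all tested genes, and the median log2 fold change was −0.16. Over the 17 other settings 5 to 10 were lower and 0 or 1 higher, with 5 lower on the TPM scale. Elmo1 and Dock2, which together switch on Rac in moving leukocytes, were lower (−0.46 and −0.42, edgeR adjusted p = 0.00027 and 0.0080), as were the receptor kinase gene Grk3 (−0.60, adjusted p = 0.00021) and the phospholipase gene Plcb2 (−0.57, adjusted p = 0.0074). The summed macrophage markers were lower in the same siPAK4 libraries, and their part in these values was not tested.

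Of 26 genes that control transcription or decay of CC chemokine messages, 12 were higher in siPAK4, 1 was lower and 13 did not pass. All were tested, and the called genes were 50% of the list, beside 26.9% of all tested genes. This list, like the other gene lists, was chosen with earlier results of these data known, so the share is only a description. The median log2 fold change was 0.17. Over the 17 other settings 9 to 15 were higher and 1 or 2 lower. The higher genes included Nfkb1, a subunit of NF-kB (181 ± 10.95 CPM in siPAK4 and 125 ± 4.99 CPM in siControl, log2 fold change 0.54, edgeR adjusted p = 5.1e-05), its inhibitor Nfkbia (153 ± 4.19 and 81.03 ± 6.12 CPM, 0.92) and Nfkbiz, a nuclear partner of NF-kB (0.81). Rela (0.08, adjusted p = 0.53) and Rel (−0.01, adjusted p = 0.93) did not pass. Irf7 (2.34), of the interferon response, was higher, and Irf5 was lower (−0.44, adjusted p = 0.0086). Of the genes that degrade chemokine messages, Zc3h12a was higher (0.51, adjusted p = 0.029), a call lost without siPAK4 replicate 1, 2 or 4 and without siControl replicate 2, 3 or 4 (adjusted p of 0.055 to 0.089). Zfp36 did not pass (−0.22, adjusted p = 0.12), though it did without siControl replicate 4 (adjusted p = 0.025).

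Proteases that clip or shed chemokines moved both ways, with 2 of 10 tested genes higher and 4 lower. The called genes were 60% of those tested, beside 26.9% of all tested genes. Mmp8 (0.50, edgeR adjusted p = 0.0038) and Adam17 (0.25, adjusted p = 0.0056) were higher. Dpp4, the serine protease that trims the ends of several chemokines, was lower (34.0 ± 3.44 CPM in siPAK4 and 41.6 ± 2.04 CPM in siControl, −0.29, adjusted p = 0.016), as were Ctsc (−0.65), Mmp2 (−0.45) and Adam10 (−0.38). The call of Dpp4 was lost in 3 of the 17 other settings (library totals and both TPM settings, adjusted p up to 0.19), and that of Adam10 in 1 (TPM plus 1, adjusted p = 0.0505). Mmp12, the macrophage elastase that cleaves several of these chemokines, had 3951 ± 834 CPM in siPAK4 and 3666 ± 355 CPM in siControl and did not pass (0.11, adjusted p = 0.59). Of 2 tested neutrophil markers 0 passed edgeR's test (1 was higher with library totals, with the replicate block and without siControl replicate 1, and with DESeq2 and TPM plus 0.1), and Ly6g, Retnlg and Elane had no read in any library. Hepatocyte markers summed to 8.38 to 23.6 CPM in siPAK4 and 2.17 to 4.85 CPM in siControl libraries, with 3 of 5 tested higher. Without siPAK4 replicate 4 or siControl replicate 1, 5 of 6 tested were higher.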

How the data were processed

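Whole-number read counts, FPKM and TPM per gene were deposited by the authors in 1 table, per the file headers; the counts carry no normalization, while the FPKM and TPM were scaled by the authors to gene length and depth. HISAT2 2.1.0, StringTie 2.1.3b and build mm10 are named in the submitters' processing notes. The counting step, with its strand setting, is not given in the sources used here. How reads of overlapping or similar genes were assigned is therefore not known. Counts of 17975 genes that passed filterByExpr (minimum count 10) were scaled by TMM and compared by edgeR 4.0.16 (quasi-likelihood, robust, Benjamini-Hochberg over all tested genes, threshold 0.05), in R 4.3.3. CPM were computed on TMM-scaled library sizes, and standard errors from the F statistic. The FPKM were not used. TPM served for levels between genes, and log2 of TPM plus 1 or 0.1 for other settings. The procedure was tested on simulated data. DESeq2 1.42.0 and limma 3.58.1 were alternatives. Same-numbered libraries did not deviate together (r from −0.17 to 0.27), so the numbers were not taken to pair samples. Libraries of 1 group differed by more than sampling noise (chi-square per degree of freedom of 12.65 or more), so none was a mere resampling of another. Each was entered as 1 sample in the fit. This does not show that they stand for separate animals or dishes. The 9 genes, 7 gene lists and 10 marker lists were chosen with earlier results of these data known. Shares of called genes in these lists are therefore descriptions, and no test over a list was run. All listed genes could be named, and for each member the 3 most similar genes; values of some listed genes are not reported here. NCBI gene identifiers matched the RefSeq table for 45679 genes. No column was left over (0).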

Additional observations from a re-analysis of the deposited data

Results flagged for a closer look

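Ccl12 in siControl replicate 3 stood apart from the other siControl libraries, at 15.26 CPM against 12.0 to 12.5 CPM. The gap took up 0.849 of the range of the group, more than Dixon's test allows for 4 libraries. Chance flags about 1 in 20 such groups, and 18 were looked at.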

How the results depend on the processing

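Besides the fit reported, 17 other settings were run for the members and receptors: other scalings, filters and tools, TPM with a pseudocount of 1 or 0.1, the replicate block and the 8 libraries left out in turn. Over the members the count of changed genes fell to 1 with no filter on low counts; over the receptors it was 1 with a mean of at least 1 CPM, a filter that Ccr3 did not pass, and 3, all lower, with DESeq2, limma-voom and both TPM settings. Leaving out 1 library in turn gave 1 to 2 changed members (1 without siPAK4 replicate 2, siControl replicate 2 or siControl replicate 4) and 1 to 3 changed receptors (1 without siPAK4 replicate 2, siControl replicate 2 or siControl replicate 3). With the replicate block, 3 members and 3 receptors passed: Ccl12 was then lower (log2 fold change −0.41, adjusted p = 0.019). Only 1 of the 4 siPAK4 libraries correlated best with its own number. No direction of a called value was reversed. With library totals alone, 67.6% of all changed genes were higher, against 46.1% with TMM, and the median of all genes was 0.094. Among single genes, 49 calls were lost and 24 gained over all settings. The cause of these changes was not tested. Ccl24, at 0 to 13 reads per library, was too low for the test.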
